A study of Mus musculus with 6 samples.

Results

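Long non-coding RNA genes expressed in liver were taken as the rows of a comparison of male with female mouse liver that met a rule on accession, symbol, chromosome and level. Every accession of the row had to start with NR_, the RefSeq prefix of non-coding transcripts. Names of microRNAs, small nucleolar and small nuclear RNAs, and Mup symbols, were left out, as were 2 further symbols, H2-Ea-ps and D7Ertd143e. Genes of the X and Y chromosomes were left out as well. The members were chosen by measured values, since the mean of the male and the female level had to reach 0.5 FPKM (fragments scaled to gene length and library total). This gave 251 members of 24197 genes. Of 2182 rows of the same type, 1194 had a level above 0 in either sex and 988 were listed at 0 in both. The minimum left out 943 rows above 0.

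The livers came from intact CD-1 mice, an outbred stock from Charles River, untreated and with no genetic change named in the labels. Poly-A selected RNA was sequenced strand-specifically from 3 male pools and 3 female pools. Each male pool joined 17 livers of mice aged 7 to 9 weeks, and each female pool joined 12 livers of mice aged 7 to 11 weeks. Pool size and upper age therefore went with sex and cannot be told apart from it, and nothing in the labels says whether a liver entered more than 1 pool.

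Long non-coding RNAs are transcripts made and often spliced like messenger RNAs but not known to be translated. Some build nuclear bodies, some carry small RNAs in their introns, and many are transcribed from the opposite strand of a coding gene or from its promoter region. In mouse liver many coding genes differ between the sexes, in large part through the pulses of growth hormone secretion, which activate the transcription factor STAT5 differently in males and females.

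The label did not hold for all members. By RefSeq gene type, 168 members were long non-coding RNAs, 60 were transcribed pseudogenes, 8 are now listed as protein coding and 4 were small RNAs. Rn45s, the precursor of the ribosomal RNAs, had no RefSeq type matched and was set apart by its name. The other 10 had no type matched either. The median level was 1.33 FPKM for the long non-coding type and 3.09 FPKM for the pseudogenes, beside 3.76 FPKM for the 10362 coding genes at the same minimum. For the 48 pseudogenes not placed on another chromosome than that of RefSeq, the median was 1.75 FPKM. Over all members it was 1.47 FPKM, and 170 members reached 1 FPKM and 31 reached 10 FPKM. Both sexes stood at 0.5 FPKM or more in 232 members, and the other 19 passed through the higher sex, 4 of them with a difference called between the sexes. These 4 were Gm12718, Gm4956, 2810408I11Rik and Gm17821, which passed through the male level alone. Just inside the minimum lay Gm16675 at a mean of 0.502 FPKM and Gm2011 and 2310061J03Rik, both at 0.503 FPKM. Just outside lay Gm15698 at 0.499 FPKM, 5730435O14Rik at 0.492 FPKM and Gm19710 at 0.488 FPKM.

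The promoters shown here belong to the members of long non-coding type with the largest called differences in each sex among those with a single start in the RefSeq promoter table of GRCm38.p6. 2810408I11Rik (chr1:64690610-64690909, minus strand) and 1810064F22Rik (chr9:22213811-22214110, minus strand) were higher in male liver. Dleu2 (chr14:61682324-61682623, minus strand) and Rian (chr12:109603695-109603994, plus strand) were higher in female liver. Each run reads 5′ to 3′ along the gene, from 250 bases before its start to 50 after it. Capitals mark matches on either strand to TTCNNNGAA (bound by STAT5), TATAAA (the TATA box) or GGGCGG (the GC box).
2810408I11Rik: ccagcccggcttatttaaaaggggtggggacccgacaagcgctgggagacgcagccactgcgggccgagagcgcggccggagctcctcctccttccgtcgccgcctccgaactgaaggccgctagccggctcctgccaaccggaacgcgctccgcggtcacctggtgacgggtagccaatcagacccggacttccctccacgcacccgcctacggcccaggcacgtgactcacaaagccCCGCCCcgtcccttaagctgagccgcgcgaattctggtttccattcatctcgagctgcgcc
1810064F22Rik: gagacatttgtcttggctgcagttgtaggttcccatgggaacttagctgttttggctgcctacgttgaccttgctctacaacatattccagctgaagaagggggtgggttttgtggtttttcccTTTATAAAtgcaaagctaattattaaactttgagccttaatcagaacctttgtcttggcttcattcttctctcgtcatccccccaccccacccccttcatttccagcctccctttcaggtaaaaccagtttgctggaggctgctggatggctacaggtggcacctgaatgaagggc
Dleu2: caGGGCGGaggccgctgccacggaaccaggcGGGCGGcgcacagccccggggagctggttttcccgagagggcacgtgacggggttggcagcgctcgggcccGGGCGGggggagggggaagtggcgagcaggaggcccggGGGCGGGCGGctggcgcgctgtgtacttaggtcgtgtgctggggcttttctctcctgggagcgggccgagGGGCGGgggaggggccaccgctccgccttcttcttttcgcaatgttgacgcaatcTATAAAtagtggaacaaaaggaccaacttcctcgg
Rian: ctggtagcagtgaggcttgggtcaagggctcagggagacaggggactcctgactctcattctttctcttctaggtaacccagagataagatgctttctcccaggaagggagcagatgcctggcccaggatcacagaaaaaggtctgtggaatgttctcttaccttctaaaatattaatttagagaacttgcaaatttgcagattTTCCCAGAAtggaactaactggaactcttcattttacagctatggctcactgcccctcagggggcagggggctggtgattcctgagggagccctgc

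The promoters differed in base composition, at 67.3% G and C for 2810408I11Rik, 47.7% for 1810064F22Rik, 69.0% for Dleu2 and 49.3% for Rian. Dleu2 held 6 matches to GGGCGG and 1 to TATAAA, and 2810408I11Rik held 1 match to GGGCGG on the other strand. In 1810064F22Rik both matches were to TATAAA, on opposite strands and overlapping, the first at base 125. Rian held the single match to the STAT5 letters, ttcccagaa, from base 205. Of 148 members with a promoter in the table, 7 (4.73%) held TTCNNNGAA, beside 8.47% of all 27025 promoters and 7.83% of 17492 coding ones. Among 17 called members with a promoter it was 1, Rian. The GC box letters were in 52.7% of the members' promoters and in 46.3% of the coding ones, and TATAAA in 11.5% and 13.3%. A match is a match of letters and no more.

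Depth was close between the sexes. The male pools held 28415535, 37727874 and 42673908 reads and the female pools 28358105, 38215906 and 41206357 reads, as worked out from the lowest FPKM values, and the summed totals were 0.962% apart. For a transcript of 1000 bases, 0.5 FPKM corresponded to about 54 reads over the 3 pools of a sex. The X-linked Xist was at 0.0199 FPKM in male against 22.5 FPKM in female liver, and the Y-linked Ddx3y at 9.60 FPKM in male livers and 0.0303 FPKM in female livers, as the labels say. Hepatocyte markers summed to 18136 FPKM in male against 23984 FPKM in female liver. Of these 6 markers, Apoa1 and Apob were called higher in male liver and Alb and Cps1 in female liver, and the gap between the sums is smaller than that of Alb alone. Markers of other cells differed too. All 5 Kupffer cell and macrophage markers found, of 6 listed, were called higher in female liver, with sums of 58.8 FPKM in male livers and 94.0 FPKM in female livers. All 3 erythroid markers were called higher in male liver, with sums of 169 FPKM in male against 91.3 FPKM in female liver. Of the lists for stellate cells and lymphocytes, 2 of 4 and 1 of 3 markers were called higher in female liver. The part of these cells in the differences below was not tested. In whole liver, fewer cells of a type and less RNA per cell cannot be told apart.

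Of the 251 members, 22 were higher in male liver (8.76%) and 13 were higher in female liver (5.18%) at an adjusted p under 0.05 in the authors' deposited table, which makes 13.9% called in all. Among all 10936 genes at the same minimum, the shares called in that table were 6.68% for male, 7.14% for female and 13.8% for either direction, so the total share for the members lay at the background. With a 2-fold ratio required as well, 9 of the 251 members were called for male and 4 for female liver. Of all 10936 genes, 159 (1.45%) and 176 (1.61%) were. The ratios hold a further normalization by the authors and so differ somewhat from the quotient of the printed means. Only means per sex were at hand, so the spread between pools enters through the authors' p-values alone. Called members differed by 1.32-fold to 11.5-fold, with a median of 1.78-fold in the authors' deposited table, beside a median of 1.49-fold for all called genes at the minimum. The median log2 ratio of male over female was -0.03 for the members and 0.01 for all genes.

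**Figure D1:**
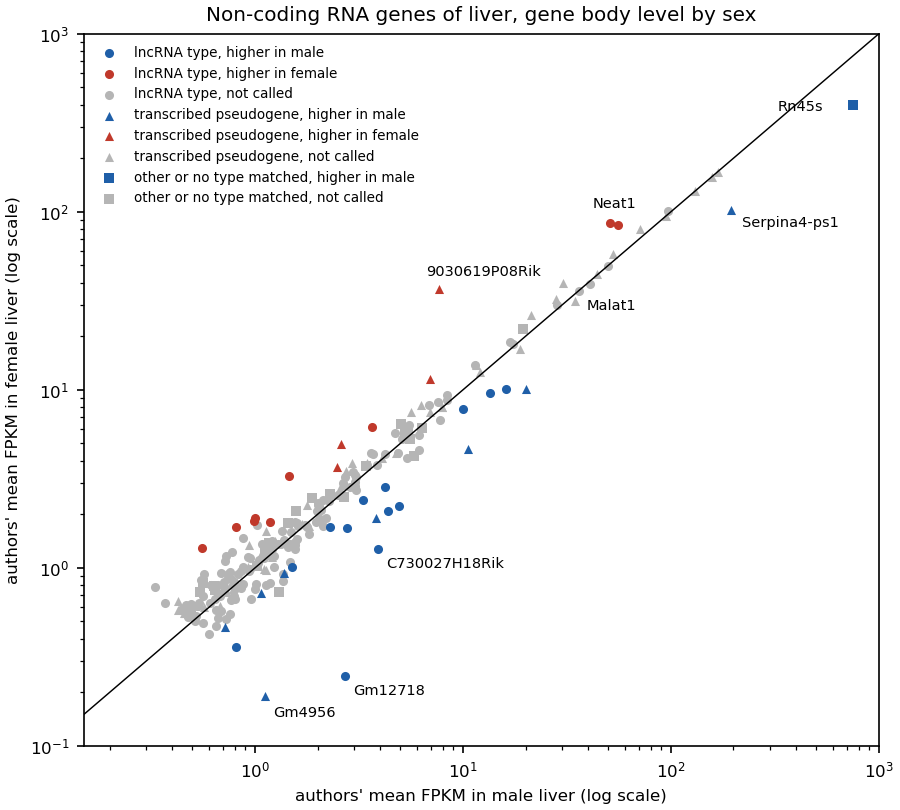
Authors' mean FPKM of each member in male liver (x axis, log scale) and female liver (y axis, log scale). Each point is 1 of 251 members, shaped by RefSeq type and coloured by the authors' call, and the line marks equal levels. Most members lie along the line, Gm12718 and Gm4956 lie farthest below it, and 9030619P08Rik lies farthest above it.

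By type, 13 of 168 long non-coding members were called for male and 9 for female liver, as were 8 and 4 of 60 pseudogenes. The shares called were 13.1% and 20%. All of the pseudogene calls, 8 and 4, fell among the 48 pseudogenes not placed on another chromosome than that of RefSeq. Rn45s was the remaining call. None of the 8 coding, 4 small and 10 unmatched rows was called. Calls were scarcer at low levels: 5 of 81 members between 0.5 and 1 FPKM were called (6.17%), and 8 of 31 members at 10 FPKM or more (25.8%). Among all genes the shares at these levels were 11.8% and 20.7%.

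The largest difference of all members was that of Gm12718, a long non-coding RNA gene at chr4:103055105-103164793 (mm9). It passed the minimum through its male level alone. It had 2.70 FPKM in male livers and 0.247 FPKM in female livers, an 11.5-fold ratio with an adjusted p of 4.45e-33 in the authors' deposited table. Its introns, which hold unspliced RNA, showed the same picture at a lower level, with 0.0408 FPKM in male against 0.00374 FPKM in female liver, and an adjusted p of 1.95e-47 in the authors' deposited table. The coding gene nearest to it, Oma1, a mitochondrial protease gene 16071 bases away, had 4.66 FPKM in male livers and 4.23 FPKM in female livers and was not called.

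Gm4956 (chr1:21275327-21288393), a transcribed pseudogene, came next and also passed the minimum through its male level alone. It had 1.11 FPKM in male against 0.191 FPKM in female liver, a 5.78-fold ratio in the authors' deposited table (adjusted p = 2.10e-06). The glutathione S-transferase gene Gsta3, 19670 bases away, was not called, with 302 FPKM in male livers and 369 FPKM in female livers (adjusted p = 0.0991 in the authors' deposited table). C730027H18Rik (chr10:70631485-70644788), of long non-coding type, had 3.91 FPKM in male against 1.27 FPKM in female liver, 3.16-fold apart (adjusted p = 5.38e-26 in the authors' deposited table). Its neighbour Bicc1, which codes for an RNA-binding protein, was at 0.369 FPKM in male livers and 0.439 FPKM in female livers. For all of these the introns were called in the same direction, with adjusted p-values of 4.41e-07 for Gm4956 and 1.92e-14 for C730027H18Rik in the authors' deposited table.

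Several male calls were pseudogenes in clusters that code for plasma protease inhibitors. Serpina4-ps1 (chr12:105316169-105325130), among the serpin genes, was the most abundant of them, at 195 FPKM in male against 102 FPKM in female liver, 1.98-fold apart (adjusted p = 1.64e-06 in the authors' deposited table). Within 100 kb of it, Serpina5, Serpina12, Serpina3a, Serpina9 and Serpina11 were each called higher in male liver. Serpina12 had 8.18 FPKM in male livers and 2.39 FPKM in female livers, and Serpina11 had 95.2 FPKM in male against 65.8 FPKM in female liver. Serpina5, the nearest, was far less abundant than the pseudogene, at 1.46 FPKM in male livers and 0.553 FPKM in female livers.

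Mug-ps1 (chr6:122126071-122198584) and Gm10319 (chr6:122086646-122100976), 25094 bases apart, lie near the genes for murinoglobulins, broad inhibitors of proteases in mouse plasma. Mug-ps1 had 20.1 FPKM in male against 10.1 FPKM in female liver, 2.05-fold apart (adjusted p = 8.14e-27 in the authors' deposited table). Gm10319 had 10.6 FPKM in male livers and 4.63 FPKM in female livers, 2.37-fold apart (adjusted p = 3.24e-19 in the authors' deposited table). Of the coding genes 1 was called and 1 was not: Mug1 had 447 FPKM in male against 216 FPKM in female liver (adjusted p = 1.71e-31), whereas Mug2 had 35.7 FPKM in male livers and 52.6 FPKM in female livers (adjusted p = 0.152), both in the authors' deposited table. Members of such families share sequence, so reads may be split between them and the values are uncertain.

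Among the other long non-coding members higher in male liver, 1810064F22Rik, whose promoter is printed above, had 4.93 FPKM in male against 2.22 FPKM in female liver (2.28-fold, adjusted p = 2.42e-09 in the authors' deposited table). It lies between 2 zinc finger genes that were also higher in male liver: Zfp872 with 0.999 FPKM in male livers and 0.491 FPKM in female livers, and Zfp809, a silencer of retroviral sequence in mice, with 5.22 FPKM in male against 3.61 FPKM in female liver. 4833411C07Rik (chr8:10899922-10902334) had 4.36 FPKM in male livers and 2.10 FPKM in female livers (2.13-fold, adjusted p = 2.69e-11 in the authors' deposited table). B930025P03Rik, a non-coding row 17467 bases from it and below the minimum, went the same way, at 0.446 FPKM in male against 0.203 FPKM in female liver. 2810408I11Rik was scarce, at 0.808 FPKM in male livers and 0.362 FPKM in female livers (2.32-fold, adjusted p = 0.0152 in the authors' deposited table).

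Hnf4aos (chr2:163319540-163367457) is read from the strand opposite to Hnf4a, the gene of a transcription factor central to hepatocytes. Its listed span does not overlap that of Hnf4a (chr2:163372924-163398643). Hnf4aos had 2.78 FPKM in male against 1.68 FPKM in female liver, 1.72-fold apart (adjusted p = 0.00721 in the authors' deposited table). R3hdml, whose span overlaps that of Hnf4aos, was not called in its gene body, at 0.704 FPKM in male against 0.473 FPKM in female liver. Its introns were called higher in male liver (adjusted p = 0.00953 in the authors' deposited table). Hnf4a itself had 65.9 FPKM in male livers and 70.8 FPKM in female livers and was not called, with an adjusted p of 1 in the authors' deposited table. Rn45s (chr17:39979942-39985774), the ribosomal RNA precursor, had the highest level of all members, at 747 FPKM in male against 398 FPKM in female liver (1.95-fold, adjusted p = 9.49e-07 in the authors' deposited table). That was 27.1% of the FPKM summed over members in male liver, against 16.3% in female liver. Ribosomal RNA carries no poly-A tail, and how much of it passes poly-A selection depends on the preparation, so its level is not that of the RNA in the cell.

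The largest difference for female liver was that of 9030619P08Rik, a transcribed pseudogene at chr15:75258036-75262259. It had 7.65 FPKM in male livers and 37.1 FPKM in female livers, 4.69-fold higher in female liver with an adjusted p of 2.29e-70 in the authors' deposited table. Its introns had 0.709 FPKM in male against 3.11 FPKM in female liver (adjusted p = 3.08e-28 in the authors' deposited table). The nearest coding gene, Ly6h, lay 132915 bases away and was listed at 0 in both sexes.

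Dleu2 (chr14:62221673-62301210), in people and mice the host of a pair of microRNAs that restrain cell division, had 1.46 FPKM in male livers and 3.27 FPKM in female livers, 2.17-fold higher in female liver (adjusted p = 1.16e-11 in the authors' deposited table). Trim13, a ubiquitin ligase gene whose span overlaps that of Dleu2, went the same way, with 0.620 FPKM in male against 1.07 FPKM in female liver (adjusted p = 0.0176 in the authors' deposited table). Whether the counting used strand is not given in the sources used here, so reads of overlapping genes cannot be told apart.

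Rian (chr12:110842155-110899921), expressed from the maternal chromosome in the imprinted Dlk1-Dio3 region and a carrier of small nucleolar RNAs, had 0.807 FPKM in male livers and 1.71 FPKM in female livers, 2.02-fold higher in female liver (adjusted p = 0.000130 in the authors' deposited table). Meg3, the long non-coding RNA gene upstream of it, lay below the minimum and went the same way, with 0.319 FPKM in male against 0.641 FPKM in female liver (adjusted p = 1.20e-06 in the authors' deposited table). AF357359, a small nucleolar RNA row, has a span of 30 bases that lies wholly inside that of Rian. It had 5.05 FPKM in male livers and 6.45 FPKM in female livers and was not called. Over so short a span such a level rests on few reads, which cannot be told apart from those of Rian.

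Abundant members were also called for female liver. Neat1 (chr19:5842302-5845478), a gene whose RNA builds the nuclear bodies called paraspeckles, had 50.8 FPKM in male against 86.4 FPKM in female liver. That was 1.64-fold higher in female liver (adjusted p = 7.86e-10 in the authors' deposited table). The row spans 3177 bases, so any longer form of the RNA was not measured beyond them. Malat1 (chr19:5795690-5802671), a nuclear speckle RNA encoded beside Neat1, had 36.0 FPKM in male livers and 35.7 FPKM in female livers, with an adjusted p of 1 in the authors' deposited table. The difference between the 2 ratios was not tested, and neither was the bearing of poly-A selection on the levels of these RNAs. AW112010 (chr19:11122102-11125056), known for its induction in mouse immune cells, had 55.7 FPKM in male against 84.2 FPKM in female liver, 1.45-fold higher in female liver (adjusted p = 5.06e-05 in the authors' deposited table). H2-K2, a pseudogene of the class I major histocompatibility complex, had 2.59 FPKM in male livers and 4.94 FPKM in female livers, 1.83-fold higher in female liver (adjusted p = 4.00e-10 in the authors' deposited table). The Kupffer cell markers that were higher in female liver include Clec4f, with 22.4 FPKM in male against 32.8 FPKM in female liver, and Marco, with 1.15 FPKM in male livers and 9.08 FPKM in female livers. Their part in the values of AW112010 and H2-K2 was not tested.

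Of the calls described neither above nor further on, those for male liver were Rps4l, Gm17821, Gm12070, 5033406O09Rik, LOC100503676, 4930470H14Rik and 2310001H17Rik, from 1.32-fold for 2310001H17Rik to 2.06-fold for Rps4l in the authors' deposited table. Rps4l, a pseudogene related to a ribosomal protein gene, had 3.81 FPKM in male against 1.90 FPKM in female liver. For female liver they were AI662270, C730036E19Rik, A330049N07Rik, Gm20752 and Gm5424, from 1.42-fold for Gm5424 to 2.19-fold for AI662270 in the authors' deposited table. AI662270 had 0.555 FPKM in male livers and 1.30 FPKM in female livers. Among the 216 members without a call, the largest ratio was that of 1700092C10Rik, 2.28-fold higher in female liver, at 0.329 FPKM in male against 0.783 FPKM in female liver (adjusted p = 0.0942 in the authors' deposited table).

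**Figure D2:**
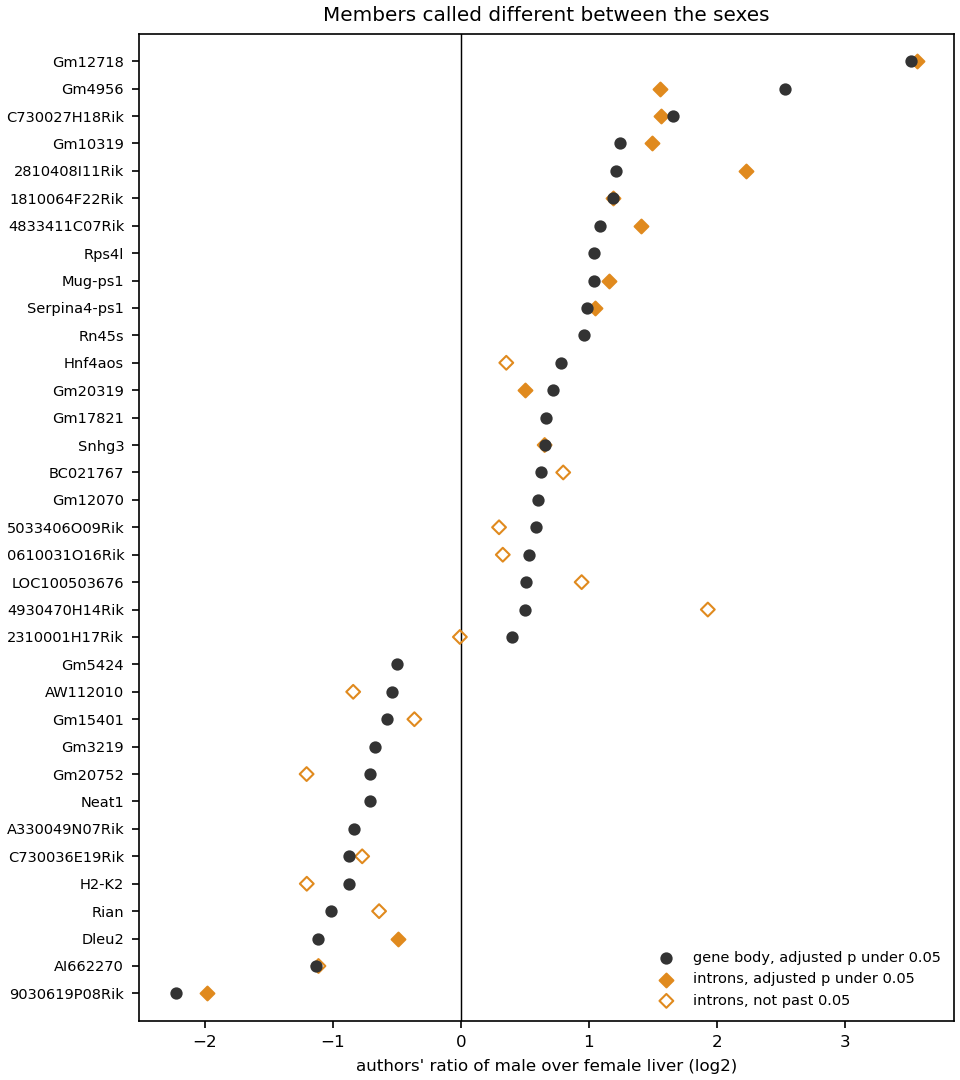
Log2 of the authors' ratio of male over female liver for the 35 called members, from gene bodies (dark circles) and from introns (orange diamonds, filled where the intron p was under 0.05). Members higher in male liver stand above those higher in female liver, and 8 members have no diamond because no intron value was above 0. The diamond falls on the other side of 0 for 2310001H17Rik, close to 0.

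Of the 35 members in a list of known roles, 6 were called (17.1%), beside 12.4% of the 137 members of long non-coding type in no list. Of 19 members that host small nucleolar RNAs, 1 was higher in male liver and none in female liver. That 1 was Snhg3, with 4.22 FPKM in male against 2.84 FPKM in female liver (1.58-fold, adjusted p = 0.0345 in the authors' deposited table). Gas5, a host linked to growth arrest, had 8.39 FPKM in male livers and 9.33 FPKM in female livers, and Snhg1 had 8.37 FPKM in male against 8.79 FPKM in female liver. All of the 4 nuclear body and chromatin RNAs are named here: Neat1 and Rian were called for female liver, Malat1 was not, and Tug1 had 3.69 FPKM in male livers and 4.36 FPKM in female livers with no call. Of 4 imprinted RNAs, Rian alone was called. Peg13, expressed from the paternal chromosome inside Trappc9, had 0.688 FPKM in male against 0.940 FPKM in female liver (adjusted p = 0.0560 in the authors' deposited table). Of 3 microRNA hosts, Dleu2 alone was called.

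Of 8 further long non-coding RNAs studied in other settings, Hnf4aos was called for male and Dleu2 for female liver. The table's 2900097C17Rik is Norad, which binds Pumilio proteins, and it had 17.4 FPKM in male livers and 18.04 FPKM in female livers. 1700020I14Rik is Oip5os1, also called Cyrano, a trigger of microRNA decay, and it had 5.10 FPKM in male against 5.32 FPKM in female liver. Rmrp, the RNA of a ribonuclease, had 1.31 FPKM in male livers and 0.735 FPKM in female livers, 1.77-fold apart without a call (adjusted p = 0.279 in the authors' deposited table). How poly-A selection bears on its level was not tested.

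The share of members called varied with their position relative to coding genes. Of all genes at the same minimum, 13.8% were called. Of 58 members of matched strand that lay more than 10 kb from any coding gene of the table, 18 were called, 12 for male and 6 for female liver (31.0%). Of 50 members arranged head to head with a coding gene on the other strand, with starts within 5 kb, 1 was called (2%), namely 2810408I11Rik beside Ccnyl1. Between these lay the 49 members that overlap a coding gene on the opposite strand, with 4 calls for male and 2 for female liver (12.2%). The 55 members within 10 kb in another layout had 4 calls for male and 5 for female liver (16.4%). None of the 11 members that overlap a coding gene on the same strand was called. Of 16 members with a strand not matched, 1 was called, Rn45s. With those of unmatched strand included, 65 members lay more than 10 kb away, and 19 of them were called (29.2%).

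Levels also differed between these classes, at a median of 1.84 FPKM for the distant and 1.03 FPKM for the head-to-head members. So did types: 38 of the 58 distant members were of long non-coding type, and 10 of those 38 were called. Of the 50 head-to-head members 41 were of that type, and 1 of those 41 was called. Among members of 1 FPKM or more, 10 of 44 distant members were called for male and 6 for female liver, and 0 of 26 head-to-head members were called. The classes were drawn up with results known, and the difference between them is a description without a test.

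**Figure D3:**
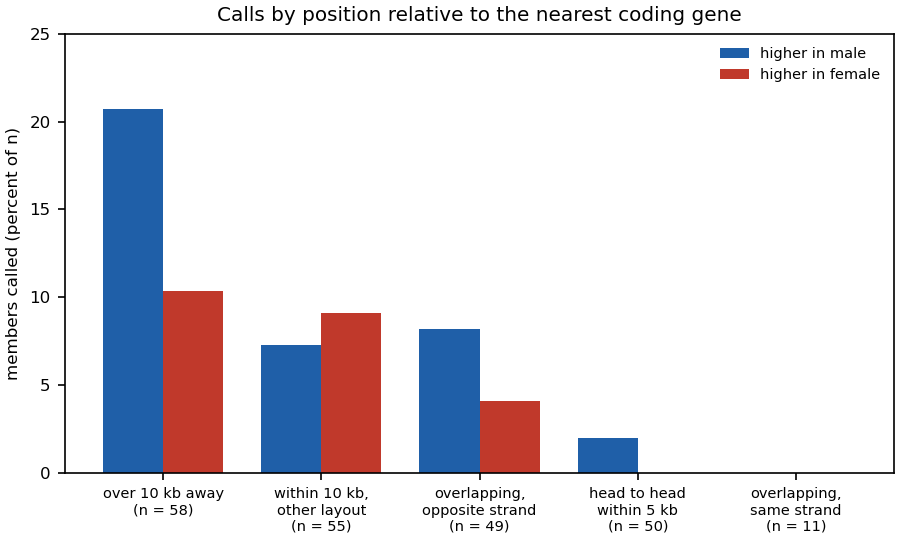
Percent of members called higher in male liver (blue bars) and in female liver (red bars), by position relative to the nearest coding gene, with the number of members of matched strand under each class. The bars are tallest for members over 10 kb away, and 1 of 50 head-to-head members was called.

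The nearest coding gene was called in the same direction for 5 of the 35 called members, 4 for male and 1 for female liver (14.3%). Dleu2 overlaps 2 coding genes, and Kcnrg, which was taken as the nearest, was not called. With Trim13 counted as well, a choice made after seeing the data, it was 6 of 35 (17.1%). Among the 216 uncalled members the nearest coding gene was called for 24 (11.1%), and for the 10362 coding genes at the minimum the nearest other one was called in 10.1%. Over all 20623 coding genes 8.41% were called in the authors' deposited table, and 14.1% of those at the minimum. The pairs for male liver were 1810064F22Rik with Zfp872, Serpina4-ps1 with Serpina5, Gm20319 with Il1rap and 0610031O16Rik with Adh7. Gm20319 had 16.1 FPKM in male against 10.1 FPKM in female liver, and Il1rap, an interleukin receptor subunit gene 12327 bases away, had 9.61 FPKM in male livers and 7.24 FPKM in female livers. 0610031O16Rik overlaps Adh7, an alcohol dehydrogenase gene, and had 13.5 FPKM in male against 9.66 FPKM in female liver. For female liver, apart from Dleu2, the pair was Gm3219, a pseudogene 21 bases from Glud1, the gene of a mitochondrial glutamate dehydrogenase. Gm3219 had 6.92 FPKM in male livers and 11.5 FPKM in female livers, and Glud1 had 180.0 FPKM in male against 233 FPKM in female liver. Whether reads of the more abundant Glud1 enter the values of Gm3219 was not tested.

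Within 100 kb, 13 called members had a called coding gene, 10 of them in the same direction, and 22 had none. The 13 are 37.1% of the called members, beside 32.4% of the uncalled members and 35.0% of coding genes at the minimum with another called coding gene in that window. The coding gene with the largest ratio in this window was Selenbp2, which codes for a selenium-binding protein. It had 184 FPKM in male livers and 22.5 FPKM in female livers, 8.45-fold apart in the authors' deposited table. The pseudogene BC021767, 26420 bases from Selenbp2, had 1.07 FPKM in male against 0.722 FPKM in female liver, 1.55-fold apart in the authors' deposited table. Opposite directions occurred as well. Gm15401 was higher in female liver, with 1.18 FPKM in male livers and 1.82 FPKM in female livers, and Retsat, a retinol-modifying enzyme gene 21799 bases away, had 59.4 FPKM in male against 36.5 FPKM in female liver. Coding neighbours of the members were often expressed: 78.5% of nearest coding genes reached the 0.5 FPKM minimum, beside 50.2% of all coding genes. The share was 60% for called members and 81.5% for uncalled members. In 77 members the nearest coding gene overlaps the member, and reads there cannot be told apart.

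**Figure D4:**
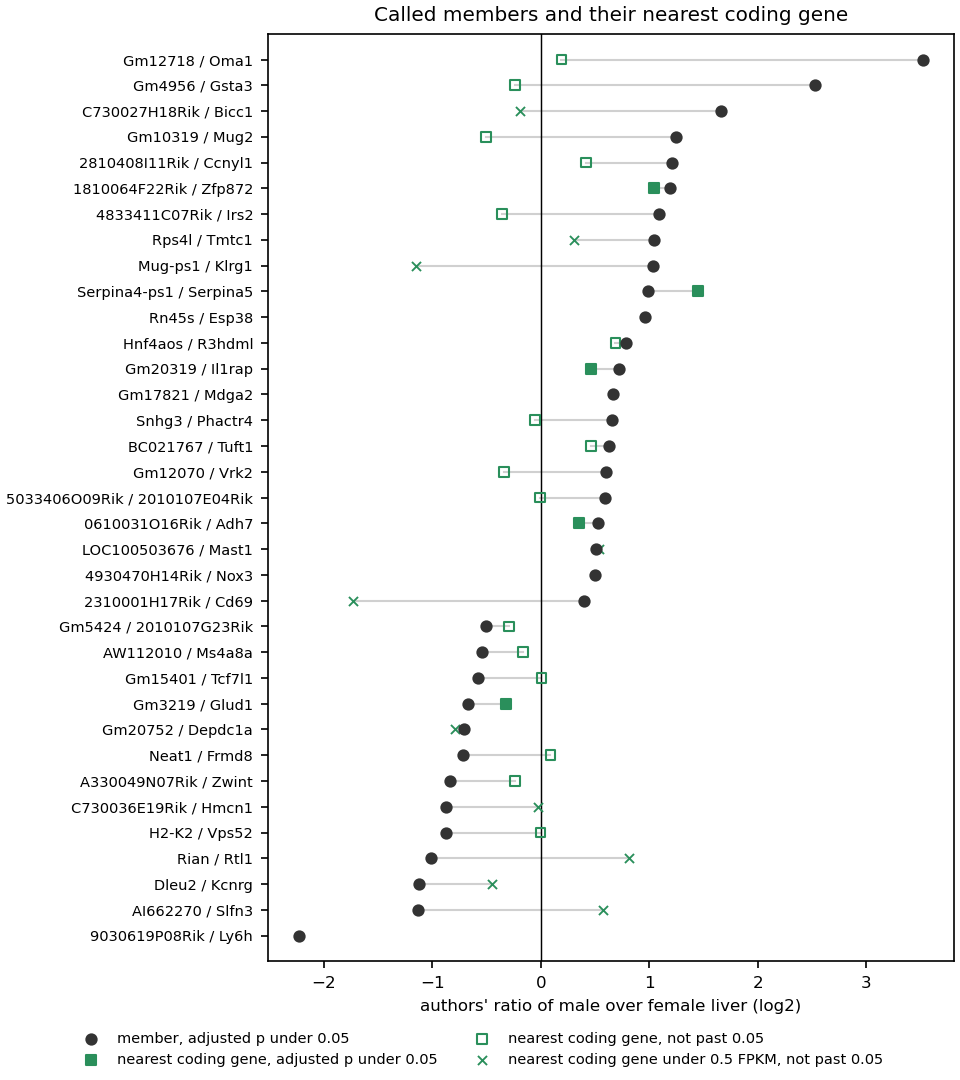
Log2 of the authors' ratio of male over female liver for the 35 called members (dark circles) and the coding gene nearest to each (green squares, filled where the p was under 0.05, and crosses where the gene was under 0.5 FPKM). A coding gene listed at 0 in both sexes has no mark. Filled squares stand on the member's side of 0 in all 5 cases.

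Some of the highest levels were those of pseudogene rows placed on a coding gene. For 12 members, all pseudogenes, the table gives a chromosome other than that of RefSeq, and each lies there at least 99.6% inside a coding gene. Oaz1-ps, for example, lies within Oaz1, the gene of antizyme, and had 169 FPKM in male against 166 FPKM in female liver, where Oaz1 had 151 FPKM in male livers and 149 FPKM in female livers. Gm15772 lies within Rpl26, a ribosomal protein gene, and had 158 FPKM in both sexes, where Rpl26 had 151 FPKM in both. Other rows lay away from their coding gene in level, among them Gm6793 in Hnrnpa3, Nutf2-ps1 in Nutf2 and BC002163 in Ndufs5. Farthest of all was Gm10052, at 21.3 FPKM in male against 26.3 FPKM in female liver, where Hnrnpa1, an RNA-binding protein gene, had 0.760 FPKM in male livers and 0.943 FPKM in female livers. None of the 12 was called, and their median level was 32.6 FPKM. Their reads cannot be told apart from those of the coding genes, so these values cannot be read as levels of non-coding RNA. The pseudogene Gm9855 (chr10:82092587-82113022), on its RefSeq chromosome and so not among the 12, also lay wholly inside a coding gene, Tdg (chr10:82092583-82113239). It had 4.08 FPKM in male against 4.12 FPKM in female liver, where Tdg had 3.67 FPKM in male livers and 3.68 FPKM in female livers. By position it was counted with the members overlapping a coding gene on the opposite strand. In all, 77 members overlapped a coding gene and 174 did not.

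**Figure D5:**
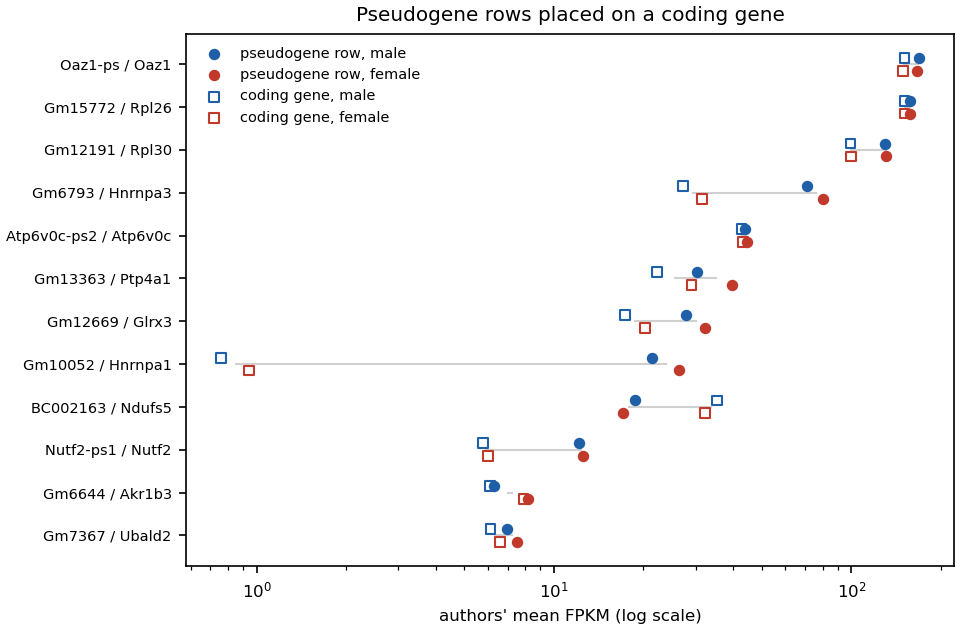
Authors' mean FPKM (x axis, log scale) of the 12 pseudogene rows that the table places on another chromosome than RefSeq does (filled circles) and of the coding gene each lies in (open squares), in male (blue) and female liver (red). No pseudogene row was called, and Gm10052 stands apart from Hnrnpa1.

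Introns of the members held more signal relative to gene bodies than those of coding genes. Intron FPKM were taken as the authors list them, and the labels and headers do not say to which length and total they were scaled. An intron value above 0 was given for 197 members, and the median intron level was 14.5% of the gene body level, beside 1.54% for coding genes at the same minimum. It was 17.1% for the long non-coding type and 4.39% for pseudogenes, and in 22 members the introns stood at 50% or more of the gene body. By intron p-values in the authors' deposited table, 13 members were called for male and 5 for female liver, together 9.14% of those with an intron value, beside 2.28% and 1.82% of all 10341 genes with one. Not all of these members were called by gene body. Serpina4-ps1 had the highest intron level, at 65.9 FPKM in male against 34.5 FPKM in female liver. Cyp2d13 and Cyp2d37-ps, pseudogenes of a cytochrome P450 subfamily, were not called and also stood among the 5 highest, with intron levels of 15.9 and 27.2 FPKM in male liver and 17.1 and 26.7 FPKM in female liver.

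Some high intron values lay where another gene overlaps. Gm30505 (chr16:22875056-22894459) had an intron level of 24.4 FPKM in male livers and 29.0 FPKM in female livers, but a gene body level of 0.535 FPKM in male against 0.635 FPKM in female liver. Its span overlaps part of Dnajb11 and the start of Ahsg, the gene of the plasma protein fetuin-A, both on the other strand. Ahsg had 2367 FPKM in male livers and 2890.3 FPKM in female livers. AI507597 (chr4:141170285-141171519) lies wholly inside Tmem82 on the other strand, and had an intron level of 8.10 FPKM in male against 9.11 FPKM in female liver, and a gene body level of 1.22 FPKM in male livers and 1.38 FPKM in female livers. For members that overlap no coding gene the median intron level was still 13.96% of the gene body level.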

How the data were processed

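Liver RNA of 3 male and 3 female pools was compared. The submitters' processing notes name TopHat2, featureCounts, edgeR and mm9, a mouse build, without version or role. Per the file headers, the deposited table gives mean FPKM for each sex as the authors took it, the normalized male to female ratio, a signed fold (a score, not used) and an adjusted p-value, for gene bodies and for introns. The adjustment of p is not given in the sources used here. Their ratio has a median of 1.04 times the ratio of the means, so it holds a further normalization. The authors' table puts 929 genes at 0 FPKM in gene bodies and above 0 in introns.

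A gene was called at an authors' adjusted p under 0.05. Tests on counts or FPKM per pool, which the design named, were not run, since only means per sex were at hand. Members and lists were chosen with earlier results of these data known. Starts count from 0 in the table and were raised by 1: for 10209 of 20796 single-location genes, end minus start equals the RefSeq span, and for 551 it is 1 less. Members at more than 1 location (28, of them 2 called) are printed at the first. RefSeq tables of GRCm38.p6 gave types, strands and promoters only, with 228 members matched by accession, 12 by symbol and 11 not at all; strands missing there came from GENCODE by symbol. A coding gene is a row with any NM_ accession. Named members were, per sex, the 12 largest called folds, then the 10 highest levels, the members of 6 role lists, nearest coding genes, the highest intron values and the rows at the minimum; others were chosen after their values were seen. Library totals came from recurring lowest FPKM values of small RNA rows, as 1 read adds 0.00781 to 0.0118 FPKM to a sex's mean for 1000 bases; which pool has which total is unknown, and such figures cover counting error only. Scripts ran in Python 3.11.15, numpy 2.4.6, pandas 2.3.3 and matplotlib 3.10.9, and were tested on simulated data.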

Additional observations from a re-analysis of the deposited data

How the results depend on the processing

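No paired analysis was possible because the columns hold means per sex and carry no pool numbers; leaving out a replicate and other count tests were not run for the same reason. The 22 calls for male and 13 for female liver became 9 and 4 with a 2-fold limit, and 14 and 8 at a mean of 2 FPKM or more. The authors' intron comparison gave 13 and 5, partly for other members. Gm14403, AW549542 and AI506816 for male and D930016D06Rik, 2810001G20Rik and 4930506C21Rik for female liver had an intron call without a gene body call. The gene body of AI506816 leaned the other way, at 0.551 FPKM in male against 0.853 FPKM in female liver. With no minimum, female calls became 24, and among RefSeq long non-coding types alone, an alternative chosen after seeing the data, male calls became 13. An adjusted p under 0.01, 1 FPKM, the X chromosome, and leaving out overlapping genes, -ps symbols, misplaced rows or Rn45s left these counts within 1.5 times. The median log2 ratio moved by under 0.1 throughout. The share of called members with a coding neighbour called in the same direction was 14.3%, and 28.6% with any coding gene within 100 kb. Of 69 named members, 35 were called, and in the scaling settings a reversal was scored for these only. Pseudocounts of 0.01 and 0.1, quantile normalization and rescaling reversed none of them and moved none of the 69. A pseudocount of 1 FPKM moved 3. Of the 27 called members with an intron value, 14 kept their direction without an intron call, and 2310001H17Rik reversed, at -0.0081. The cause was not tested.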
